A study of Rattus norvegicus with 16 samples.

Results

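The genes described here are 9 genes of the integrated stress response and of the endoplasmic reticulum (ER) stress response, measured by bulk RNA sequencing in the infarct zone of rat hearts. They are Atf4, Ddit3, Nupr1, Trib3, Asns, Chac1, Gdf15, Hspa5 and Xbp1, taken by gene name from the deposited table of 17085 genes. All 9 had a row, and all 9 were among the 11376 genes that passed the filter on low counts. The study holds 16 libraries, 4 in each of 4 groups. The MI_stiff group had ligation of the left anterior descending coronary artery and a stiff hydrogel, and the MI_soft group had the same ligation and a soft hydrogel. The MI group had the ligation with no gel, and the Sham group was the operated control without infarction. Every group other than Sham therefore carries the ligation. The series title describes the gels as injected into the heart muscle as a treatment of ischemic cardiomyopathy. The RNA extraction label of the libraries names Sham, MI and MI/R as its sources and does not say which libraries MI/R stands for. Strain, age, sex, time after surgery, the gel material and whether MI hearts received an injection without gel are not stated in the labels.

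Cells answer several kinds of stress through one switch. Kinases that sense unfolded protein in the ER, missing amino acids, heme shortage or viral RNA phosphorylate the translation factor eIF2, which lowers protein synthesis in general and raises translation of the mRNA of ATF4, a basic leucine zipper transcription factor. ATF4 then drives genes of amino acid supply, redox balance and, under lasting stress, cell death. Unfolded protein in the ER also acts through IRE1, which splices Xbp1 mRNA into the form that codes for an active transcription factor, and through ATF6. Those arms raise chaperones such as BiP, the product of Hspa5. In the heart, ischemia is a known trigger of both responses. ATF4 and XBP1 are controlled in large part after transcription, and gene-level counts show neither the translation of Atf4 nor the splicing of Xbp1.

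Promoter windows of the members were searched for the short sequences that these factors are known to bind. The sequences came from RefSeq on the rat build GRCr8, which is not the build of the counts (rn7), so the coordinates below belong to GRCr8 alone. Each window ran from 250 bases before to 50 bases after an annotated start of its gene. Both strands were searched for TGATGNAA, the C/EBP-ATF response element that ATF4 binds with a C/EBP partner, and for CCAAT followed after 9 further bases by CCACG, the ER stress response element bound by ATF6 with NF-Y. Of 33365 promoter windows of all genes, 3.98% held the first motif and 0.0659% held the second. The C/EBP-ATF element was present in the windows of Nupr1, Chac1 and Trib3, in each case on the strand opposite to the gene. The windows are shown because they share the element, which is in capitals. They lie on the minus strand at chr1:190645852-190646151 for Nupr1, the plus strand at chr3:126795881-126796180 for Chac1 and the minus strand at chr3:161275484-161275783 for Trib3.
Nupr1: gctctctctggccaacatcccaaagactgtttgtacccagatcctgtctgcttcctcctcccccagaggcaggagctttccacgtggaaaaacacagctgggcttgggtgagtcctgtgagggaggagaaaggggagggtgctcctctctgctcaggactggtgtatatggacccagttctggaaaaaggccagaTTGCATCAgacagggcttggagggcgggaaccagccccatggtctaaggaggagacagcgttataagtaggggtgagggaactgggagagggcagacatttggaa
Chac1: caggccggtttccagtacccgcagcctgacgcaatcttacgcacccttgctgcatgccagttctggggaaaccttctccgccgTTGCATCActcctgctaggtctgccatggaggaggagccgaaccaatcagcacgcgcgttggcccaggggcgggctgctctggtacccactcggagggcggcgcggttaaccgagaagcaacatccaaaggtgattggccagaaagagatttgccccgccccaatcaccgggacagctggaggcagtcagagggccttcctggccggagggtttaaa
Trib3: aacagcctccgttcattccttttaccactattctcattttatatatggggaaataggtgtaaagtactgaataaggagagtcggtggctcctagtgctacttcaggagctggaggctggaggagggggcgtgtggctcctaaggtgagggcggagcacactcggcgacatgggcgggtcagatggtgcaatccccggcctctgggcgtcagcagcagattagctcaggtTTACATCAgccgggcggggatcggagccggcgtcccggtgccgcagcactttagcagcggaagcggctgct
The first base of the element lay at -55 in Nupr1, at -167 in Chac1 and at -21 in Trib3, counted from the annotated start. The letters matched were TTGCATCA in Nupr1 and Chac1 and TTACATCA in Trib3, written in the direction of the gene.

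The ER stress response element was present in the windows of Hspa5 and Xbp1, on the strand of the gene. Both windows are on the plus strand, at chr3:38452766-38453065 for Hspa5 and chr14:84604373-84604672 for Xbp1, with the element in capitals. They are shown because the response of Xbp1 to ligation passed the test and that of Hspa5 did not.
Hspa5: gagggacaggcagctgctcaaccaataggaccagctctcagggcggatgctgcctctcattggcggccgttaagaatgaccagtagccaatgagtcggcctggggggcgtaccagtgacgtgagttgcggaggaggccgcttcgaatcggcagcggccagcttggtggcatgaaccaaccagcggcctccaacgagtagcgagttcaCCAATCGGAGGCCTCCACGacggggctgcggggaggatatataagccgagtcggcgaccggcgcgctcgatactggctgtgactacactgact
Xbp1: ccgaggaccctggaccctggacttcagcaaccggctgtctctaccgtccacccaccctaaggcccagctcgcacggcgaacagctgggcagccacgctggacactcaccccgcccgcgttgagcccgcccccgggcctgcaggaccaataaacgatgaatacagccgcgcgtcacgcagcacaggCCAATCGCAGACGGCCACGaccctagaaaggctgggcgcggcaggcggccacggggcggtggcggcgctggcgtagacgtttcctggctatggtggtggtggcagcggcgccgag
The element began at -43 in Hspa5 and at -65 in Xbp1. The further motifs TGACGTGG (the unfolded protein response element) and ATTGG followed after 1 further base by CCACG (a variant of the ER stress response element), present in 0.596% and 0.051% of all windows, matched no member window. None of the motifs matched a window of Atf4, Ddit3, Asns or Gdf15, of which Gdf15 had 2 windows. The Asns window, on the minus strand at chr4:36769366-36769665, did not reach the outer start of the gene's locus at chr4:36769970. The sequence around that outer start of Asns was therefore not searched. An absent match says only that these letters are not in this window.

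Total counts per library ranged from 10940685 to 14456188. The number of genes with a count ranged from 10470 to 12820. The lowest numbers were 10470 in MI 2, 10958 in MI 3, 11283 in MI 4 and 11785 in MI_soft 4, while MI 1 had 12820. MI 2, MI 3 and MI 4 therefore stand apart from MI 1. Mitochondrially encoded genes held 25.1% to 50.5% of the counts, which leaves a variable share for the genes described. No label ties the libraries to separate animals, and the p-values therefore reflect only how these libraries vary, which can include technical variation. Levels are given as counts per 1000000 (CPM), scaled by edgeR's trimmed mean of M values (TMM), and differences as log2 ratios with their standard errors (SE). Each comparison used the quasi-likelihood test of edgeR. Its p-values were adjusted by Benjamini-Hochberg over all 11376 tested genes, and a gene passed at an adjusted p under 0.05.

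Cardiomyocyte markers were detected in every library, with none of 7 measured markers at 0. Ligation moved the markers of several cell types. The summed transcripts per 1000000 (TPM) of 6 fibroblast markers ranged from 2794 to 4923 in MI_stiff libraries, from 2171 to 4052 in MI_soft libraries and from 3427 to 6144 in MI libraries, against 633 to 837 in Sham libraries. The sum of 6 macrophage and monocyte markers was 416 to 2616 in MI_stiff, 1187 to 2319 in MI_soft and 223 to 981 in MI libraries, against 54.9 to 80.5 in Sham libraries. The 7 cardiomyocyte markers summed to 12633 to 25310 in MI_stiff, 17637 to 26575 in MI_soft and 13388 to 21850 in MI libraries, against 25672 to 41346 in Sham libraries. In bulk samples, fewer cells of a type and less RNA per cell cannot be told apart. Of 4 smooth muscle markers listed, Tagln and Cnn1 were measured, which activated fibroblasts also express. They summed to 83.7 to 164 TPM in MI_stiff, 201 to 313 TPM in MI_soft and 109 to 608 TPM in MI libraries, against 11.5 to 39.1 TPM in Sham libraries. The part of these shifts in the differences between groups was not tested, and Nupr1 is set beside the markers below.

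Ligation alone raised 5 of the 9 genes, Nupr1, Ddit3, Asns, Xbp1 and Gdf15, and lowered none (MI against Sham). Over all tested genes, 36.6% passed the same test in either direction, 20.2% as higher and 16.4% as lower, so that 55.6% of the members stood against 36.6% in general. The median log2 difference of the 9 members was 1.35, and that of all tested genes was 0.06. The CPM of MI and Sham libraries did not overlap for 4 members, of which Nupr1, Ddit3 and Xbp1 were higher and Hspa5 was lower in MI. Without Sham 3, which ended the calls of Asns and Gdf15, 3 members were called. Groups did not overlap for 38% of all tested genes, of which 17.7% were higher and 20.3% lower in MI, as shares of all tested genes.

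**Figure D1:**
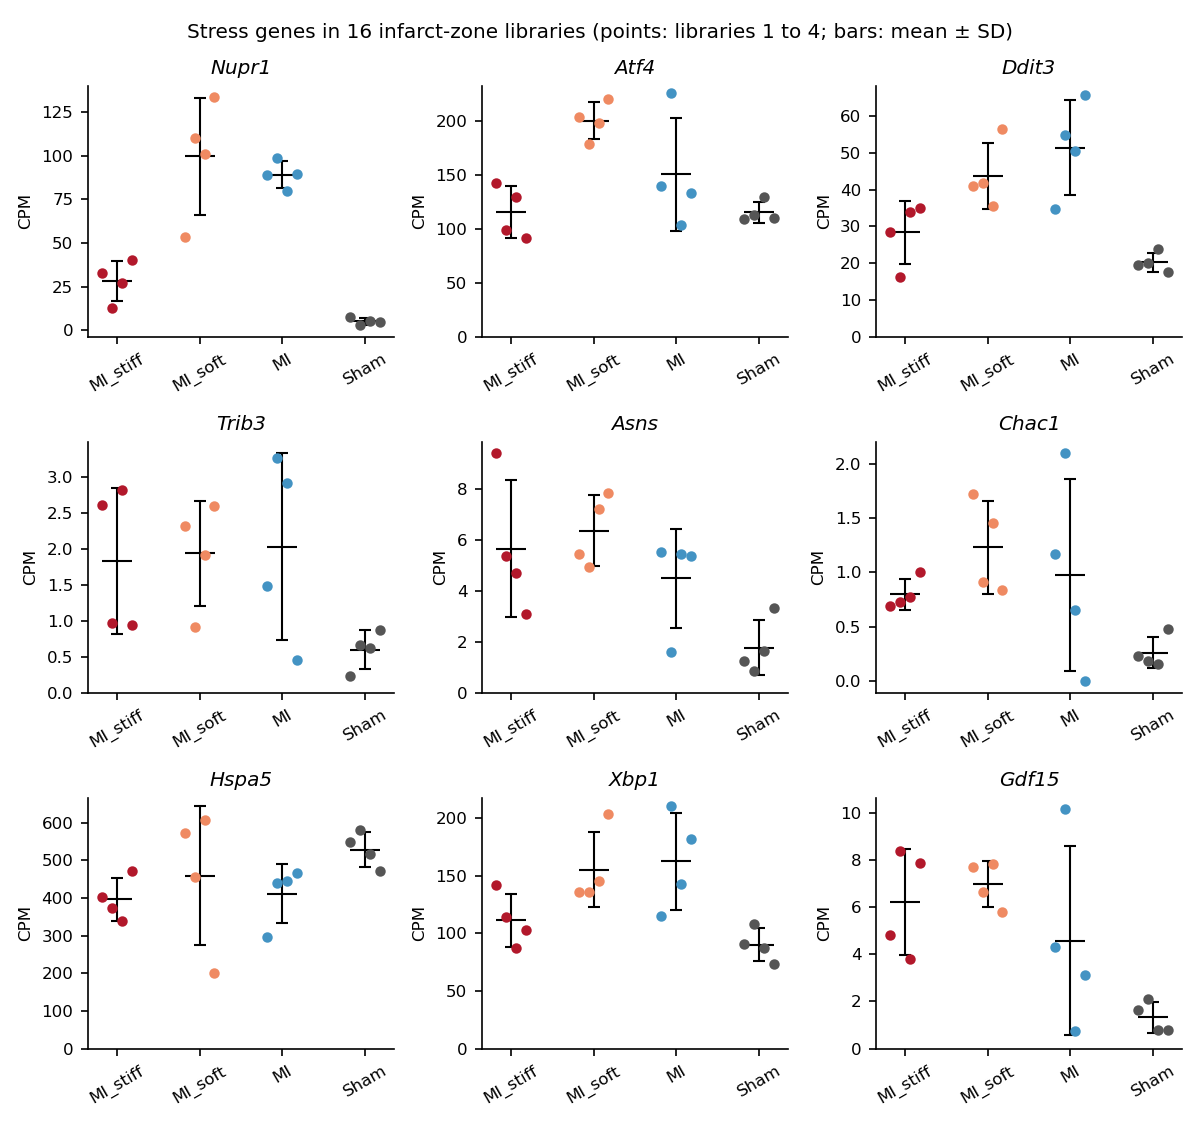
Counts per 1000000 (CPM, vertical axes, each starting near 0) of the 9 genes in the 16 libraries, by group. Points are libraries 1 to 4 from left to right within a group, the long bar is the mean and the whiskers are the SD over 4 libraries. Nupr1 lies at 79.7 CPM or above in all MI libraries, at 40.4 CPM or below in all MI_stiff libraries and at 7.46 CPM or below in all Sham libraries, while Hspa5 has its highest mean in Sham.

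Atf4, the transcription factor at the center of the integrated stress response, had 143, 98.5, 129 and 91.6 CPM in MI_stiff libraries 1 to 4 and 204, 179, 198 and 221 CPM in MI_soft libraries. It had 140.0, 226, 104 and 133 CPM in MI libraries, against 109, 112, 129.7 and 110.0 CPM in Sham libraries. MI_soft libraries were all above the Sham libraries, and the MI and MI_stiff libraries overlapped them. Atf4 rose in MI_soft relative to Sham by 0.80 ± 0.22 on the log2 scale (SE; edgeR adjusted p = 0.0123). In MI the log2 difference from Sham was 0.39 ± 0.22 (edgeR adjusted p = 0.173), and in MI_stiff it was 0.00 ± 0.22 (edgeR adjusted p = 0.993), with a 95% interval from -0.45 to 0.46. The order of the group means was MI_soft at 201 CPM, MI at 151 CPM, MI_stiff at 116 CPM and Sham at 115 CPM, and no neighbors in that order differed past the threshold.

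Ddit3 encodes CHOP, a transcription factor induced by ATF4 and linked to cell death under lasting ER stress. It had 28.6, 16.2, 33.8 and 35.0 CPM in MI_stiff libraries and 41.0, 41.7, 35.6 and 56.7 CPM in MI_soft libraries. The MI libraries held 34.8, 54.9, 50.6 and 65.8 CPM, against 19.4, 20.1, 23.8 and 17.7 CPM in Sham libraries. All MI and MI_soft libraries were above all Sham libraries, and MI_stiff 2 was below every Sham library. Ddit3 rose by 1.35 ± 0.25 (log2) in MI relative to Sham, which is 2.54-fold (edgeR adjusted p = 0.000594), and by 1.11 ± 0.25 in MI_soft relative to Sham (edgeR adjusted p = 0.00362). In MI_stiff its difference from Sham was 0.49 ± 0.25 (edgeR adjusted p = 0.179), and without MI_stiff 2 it was 0.70 (edgeR adjusted p = 0.0479). With the 4 libraries of fewest detected genes left out, an alternative chosen after seeing the data that leaves MI 1 as the only MI library, the difference of Ddit3 in MI against Sham was 0.80, a value of 1 library whose spread is taken from the other groups.

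Nupr1 had the largest difference from Sham among the members in MI, in MI_soft and in MI_stiff. It encodes a small chromatin-associated protein that many cell stresses induce and that ATF4 is known to activate. Nupr1 had 33.1, 13.1, 26.9 and 40.4 CPM in MI_stiff libraries and 53.4, 110.5, 101 and 133 CPM in MI_soft libraries. Its level was 88.8, 98.7, 79.7 and 89.4 CPM in MI libraries, against 7.46, 3.03, 5.20 and 4.91 CPM in Sham libraries. No library of an infarcted group overlapped the Sham libraries, and the MI_stiff libraries lay apart from both other infarcted groups. Nupr1 rose by 4.11 ± 0.37 (log2) in MI relative to Sham, which is 17.2-fold (edgeR adjusted p = 7.01e-07). It rose by 4.27 ± 0.37 in MI_soft (edgeR adjusted p = 5.67e-07) and by 2.46 ± 0.34 in MI_stiff (edgeR adjusted p = 8.32e-05), each relative to Sham. In order, MI_soft at 99.6 CPM and MI at 89.1 CPM did not differ beyond their spread, with a log2 difference of 0.16 ± 0.32 (edgeR adjusted p = 0.829) and a 95% interval from -0.50 to 0.83. MI_stiff at 28.4 CPM was next and Sham at 5.15 CPM was last.

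Trib3, a pseudokinase induced by ATF4 and CHOP that feeds back on ATF4, had few counts. It had 2.60, 0.965, 2.81 and 0.940 CPM in MI_stiff libraries and 2.32, 0.913, 1.92 and 2.59 CPM in MI_soft libraries. In MI libraries it had 1.48, 3.27, 2.91 and 0.456 CPM, against 0.233, 0.662, 0.621 and 0.872 CPM in Sham libraries. Every MI_stiff and MI_soft library was above every Sham library, and MI 4 fell within the Sham range. The log2 difference was 1.75 ± 0.69 in MI (edgeR adjusted p = 0.0561), 1.68 ± 0.69 in MI_soft (edgeR adjusted p = 0.0801) and 1.60 ± 0.69 in MI_stiff (edgeR adjusted p = 0.108), each against Sham. Counts behind these values were 3 to 11 per Sham library and 5 to 40 per infarcted library, and no difference of Trib3 passed the test. Leaving out MI 4, the library with the lowest value, brought the MI difference to 2.08 (edgeR adjusted p = 0.0224), and leaving out MI 1 brought it to 1.87 (edgeR adjusted p = 0.049).

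Asns encodes asparagine synthetase, which makes asparagine from aspartate and is a standard target of ATF4 when amino acids are short. It had 9.42, 5.39, 4.71 and 3.09 CPM in MI_stiff libraries and 5.45, 4.94, 7.20 and 7.86 CPM in MI_soft libraries. In MI libraries it had 5.53, 1.59, 5.44 and 5.38 CPM, against 1.24, 0.851, 1.63 and 3.33 CPM in Sham libraries. On the CPM scale all MI_soft libraries were above all Sham libraries, while MI 2 and MI_stiff 4 lay below Sham 4. On the TPM scale the MI_stiff libraries lay above the Sham libraries, at 1.85 to 3.71 TPM against 0.27 to 1.36 TPM. Asns rose by 1.34 ± 0.50 (log2) in MI (edgeR adjusted p = 0.0424), by 1.84 ± 0.50 in MI_soft (edgeR adjusted p = 0.0114) and by 1.67 ± 0.50 in MI_stiff (edgeR adjusted p = 0.0229), each relative to Sham. Of the 16 fits that each left out 1 library, the call in MI held in the 5 without MI 2, MI_soft 4, MI_stiff 1, MI_stiff 4 or Sham 4, and adjusted p ran from 0.0147 to 0.115 over the 16. The MI_stiff call was lost without MI_stiff 1 (edgeR adjusted p = 0.0926), without Sham 1 (0.0702), without Sham 2 (0.0681) and without Sham 3 (0.0629).

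Chac1 encodes an enzyme that breaks down glutathione, and it had the lowest mean TPM of the members in each group. On the CPM scale it had 0.689, 0.724, 0.774 and 1.01 CPM in MI_stiff libraries and 1.72, 0.913, 1.45 and 0.836 CPM in MI_soft libraries. In MI libraries it had 1.17, 2.09, 0.657 and 0 CPM, against 0.233, 0.189, 0.155 and 0.475 CPM in Sham libraries. The count of 0 in MI 4 allows a level of up to 0.273 CPM, taking 3 counts as the limit and covering counting error only. Both gel groups lay above all Sham libraries. The log2 difference from Sham was 1.86 ± 0.87 in MI (edgeR adjusted p = 0.103), 2.18 ± 0.87 in MI_soft (edgeR adjusted p = 0.0732) and 1.56 ± 0.87 in MI_stiff (edgeR adjusted p = 0.221), so no difference of Chac1 passed the test at 2 to 6 counts per Sham library. Without MI 4 the MI difference was 2.27 (edgeR adjusted p = 0.0185) and the MI_soft difference was 2.17 (edgeR adjusted p = 0.0215).

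Gdf15 encodes a secreted hormone of the TGF-beta superfamily, which acts on the hindbrain receptor GFRAL and is used as a blood marker of heart disease. It had 4.82, 8.36, 3.80 and 7.86 CPM in MI_stiff libraries and 7.69, 6.62, 7.80 and 5.77 CPM in MI_soft libraries. In MI libraries it had 4.30, 10.1, 0.751 and 3.10 CPM, against 1.63, 2.08, 0.776 and 0.792 CPM in Sham libraries. Both gel groups lay above all Sham libraries, and MI 3 was below all of them. Gdf15 rose by 2.40 ± 0.59 (log2) in MI_soft (edgeR adjusted p = 0.00615), by 2.23 ± 0.58 in MI_stiff (edgeR adjusted p = 0.0111) and by 1.79 ± 0.58 in MI (edgeR adjusted p = 0.0223), each relative to Sham. The MI difference rested in large part on MI 2, without which it was 1.04 (edgeR adjusted p = 0.138), and the call was also lost without Sham 3 (0.0667) and without Sham 4 (0.0676).

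Hspa5 encodes BiP, the main HSP70 chaperone of the ER. It had 401, 373, 339 and 471 CPM in MI_stiff libraries and 572, 456, 608 and 201 CPM in MI_soft libraries. In MI libraries it had 296, 440.1, 444 and 466 CPM, against 547, 579.5, 516 and 470.5 CPM in Sham libraries. Every MI library was below every Sham library, and the MI_soft libraries spanned the widest range. The log2 difference from Sham was -0.36 ± 0.27 in MI (edgeR adjusted p = 0.3), -0.20 ± 0.27 in MI_soft (edgeR adjusted p = 0.595) and -0.42 ± 0.27 in MI_stiff (edgeR adjusted p = 0.292). Hspa5 was thus the one member with a negative estimate in all 3 comparisons with Sham, and none of them passed the test. The sign in MI_soft rested on MI_soft 4, without which the difference was 0.034 (edgeR adjusted p = 0.919). In MI against Sham the upper end of the 95% interval of Hspa5 was 0.20 on the log2 scale. With the 4 libraries of fewest detected genes left out, Hspa5 was lower in MI_stiff than in Sham by a log2 difference of -0.39 (edgeR adjusted p = 0.0324).

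Xbp1 encodes the transcription factor of the IRE1 arm and is also needed by secretory cells such as plasma cells. It had 142, 114, 87.2 and 102 CPM in MI_stiff libraries and 136, 136, 146 and 204 CPM in MI_soft libraries. In MI libraries it had 115, 211, 143 and 182 CPM, against 91.0, 108, 87.6 and 73.2 CPM in Sham libraries. On the CPM scale all MI and MI_soft libraries were above all Sham libraries, and the MI_stiff libraries overlapped them. On the TPM scale the MI_stiff libraries lay above the Sham libraries, at 56.6 to 78.2 TPM against 38.2 to 49.1 TPM. Xbp1 rose by 0.85 ± 0.22 (log2) in MI (edgeR adjusted p = 0.00662) and by 0.79 ± 0.22 in MI_soft (edgeR adjusted p = 0.0143), and its difference in MI_stiff was 0.31 ± 0.22 (edgeR adjusted p = 0.355), each against Sham. Without the 4 libraries of fewest detected genes the MI difference, then of MI 1 alone, was 0.38, and without Sham 4 the MI_soft difference was 0.70 (edgeR adjusted p = 0.0597). Markers of plasma and B cells had their highest sums in MI_soft libraries. The summed TPM of 6 such markers was 2.67 to 5.62 in MI_stiff, 37.0 to 348 in MI_soft and 1.47 to 30.4 in MI libraries. In Sham libraries the sum was 1.25 to 4.35, and all 6 were detected in every MI_soft library. All 6 rose in MI_soft relative to Sham in edgeR's test, where 16.4% of all tested genes were higher. None passed in MI or MI_stiff relative to Sham, where 36.6% and 21.2% of all tested genes passed. Compared directly, none of the 6 passed in MI_soft against MI or in MI_stiff against MI_soft. Of all tested genes, 0.0264% and 0.0967% passed in those direct comparisons. The part of these markers in the level of Xbp1 was not tested.

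**Figure D2:**
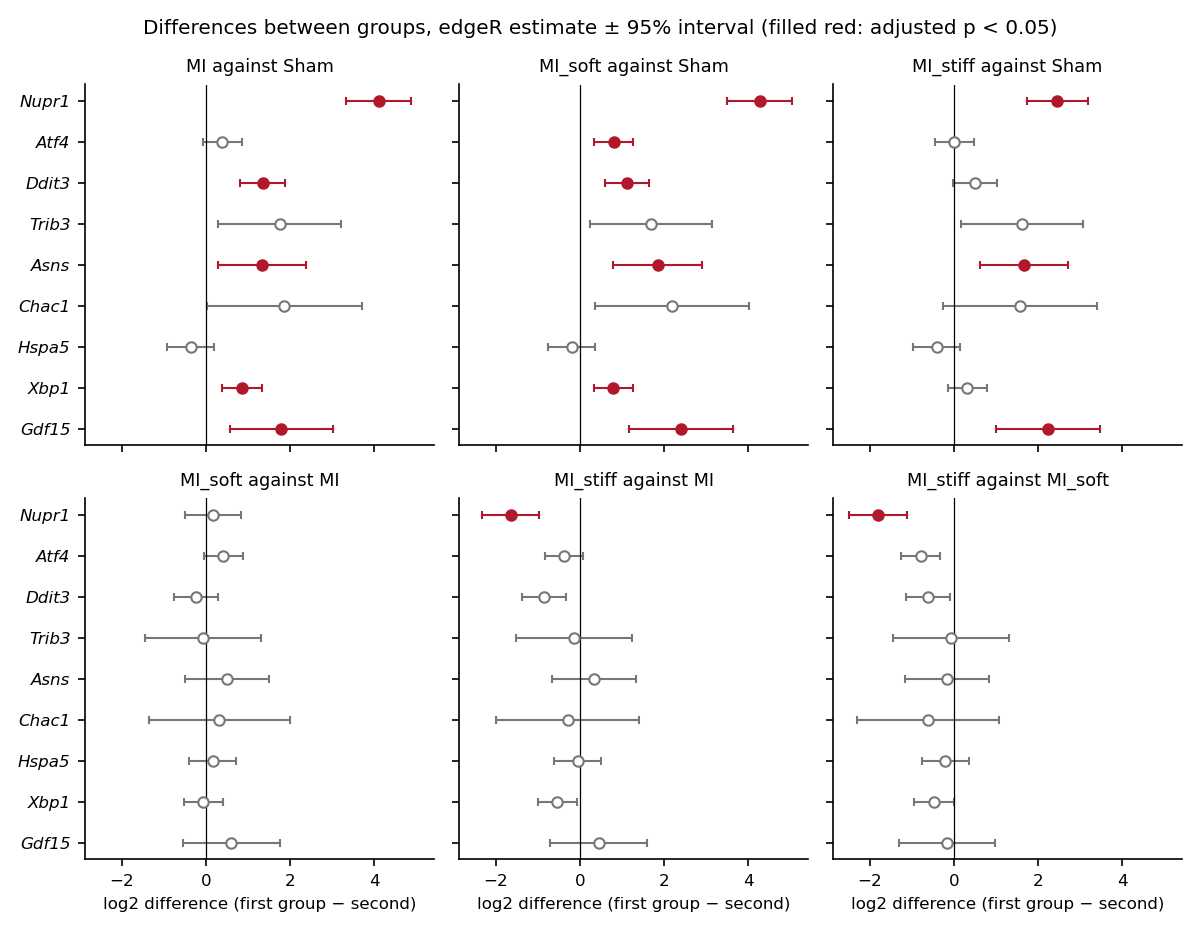
Log2 differences of the 9 genes (horizontal axes) in the 6 comparisons, with points for estimates from edgeR, whiskers for 95% intervals, and filled points where the adjusted p was under 0.05. Nupr1 stands farthest to the right in each comparison with Sham, at 4.11 in MI, 4.27 in MI_soft and 2.46 in MI_stiff, and is the one gene with filled points in MI_stiff against MI and MI_stiff against MI_soft.

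With the soft gel, 6 of the 9 members were higher than in Sham (Nupr1, Atf4, Ddit3, Asns, Xbp1 and Gdf15), none was lower, and 26.1% of all tested genes passed in either direction, 16.4% as higher and 9.71% as lower. The MI_soft libraries lay entirely above the Sham libraries for 8 members, all but Hspa5, where 20.9% of all tested genes did so. With the stiff gel, 3 members were higher than in Sham (Nupr1, Asns and Gdf15) and none was lower, against 21.2% of all tested genes in either direction, 12.7% as higher and 8.44% as lower. In CPM the MI_stiff libraries lay above the Sham libraries for 4 members (Nupr1, Trib3, Chac1 and Gdf15), where 19.3% of all tested genes did so. In TPM, Asns and Xbp1 separated as well. On that scale limma on log2(TPM + 1) moved the median of all tested genes upward by 0.25, and the share of all genes that separated was not counted. The median log2 difference of the members was 1.68 in MI_soft and 1.56 in MI_stiff, beside 0.01 and 0.02 over all tested genes. With the 4 libraries of fewest detected genes left out, 7 members were called higher in MI_soft, where Chac1 was added. In MI_stiff 6 were called, where Trib3 and Chac1 were added as higher and Hspa5 as lower. Calls over all tested genes rose as well in that alternative, as given below, so its counts cannot be set beside the shares above. The MI group then holds 1 library, and its calls are not given. These comparisons and that of MI share the Sham libraries. A call in one and not in another does not show a difference between them, which the direct comparisons below address.

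The soft gel added to ligation gave no call among the members (MI_soft against MI). The edgeR test called 0 of 9, none had an unadjusted p under 0.05, and DESeq2 also called none, while edgeR called 0.0264% of all tested genes and found 1761 with an unadjusted p under 0.05. Without MI 1 the count over all genes was 1505, and the members called were still 0. No member had groups that did not overlap, against 4.24% of all tested genes. The estimates ran from -0.24 for Ddit3, with a 95% interval from -0.76 to 0.29, to 0.60 for Gdf15, with an interval from -0.55 to 1.76. For the low genes Trib3 and Chac1 the intervals were wider, from -1.44 to 1.31 and from -1.37 to 2.01.

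The stiff gel added to ligation lowered 1 member, Nupr1 (MI_stiff against MI). Of all tested genes, 1.19% passed this test, 0.492% as higher and 0.694% as lower. Nupr1 averaged 28.4 ± 11.6 CPM in MI_stiff libraries and 89.1 ± 7.77 CPM in MI libraries (SD, n = 4 each), and fell by 1.65 ± 0.33 on the log2 scale (SE; edgeR adjusted p = 0.025). All 4 MI_stiff libraries were below all 4 MI libraries, which held for no other member and for 3.9% of all tested genes. The smooth muscle markers Tagln and Cnn1 moved with it: both were lower in MI_stiff than in MI, by log2 differences of -1.85 ± 0.41 (edgeR adjusted p = 0.0387) and -2.95 ± 0.66 (edgeR adjusted p = 0.0391). Ddit3 and Xbp1 had unadjusted p-values of 0.00303 and 0.024 in the same direction, with log2 differences of -0.86 ± 0.25 (edgeR adjusted p = 0.0939) and -0.55 ± 0.22 (edgeR adjusted p = 0.22). Ddit3 passed without MI 1 (edgeR adjusted p = 0.0174) and without MI_soft 4 (0.0449). Atf4 had a difference of -0.38 ± 0.22 (edgeR adjusted p = 0.382). The estimates of Asns and Gdf15 were positive, at 0.33 ± 0.48 and 0.44 ± 0.55, and did not pass. The Nupr1 call was lost without MI 2 (edgeR adjusted p = 0.0742), MI 4 (0.0815), MI_stiff 2 (0.0514) or MI_stiff 3 (0.0935), with a log2 difference from -1.85 to -1.40 over the 16 fits that each left out 1 library. With the 4 libraries of fewest detected genes left out, the difference from MI 1 alone was -1.64. The call was also lost in a fit of MI_stiff and MI alone (edgeR adjusted p = 0.056) and with limma on log2(TPM + 1) (limma adjusted p = 0.0642).

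Between the gels, all 9 estimates were negative, and 1 passed the test (MI_stiff against MI_soft). Nupr1 averaged 28.4 ± 11.6 CPM in MI_stiff libraries and 99.6 ± 33.7 CPM in MI_soft libraries (SD, n = 4 each), a log2 difference of -1.81 ± 0.33 (SE; edgeR adjusted p = 0.0354). Over all tested genes 0.0967% passed, 11 genes in all, with 0.0615% as higher and 0.0352% as lower. For Tagln and Cnn1 the differences were -1.44 ± 0.40 (edgeR adjusted p = 0.136) and -2.31 ± 0.65 (edgeR adjusted p = 0.138), and their summed TPM in MI_stiff did not overlap that in MI_soft. The MI_stiff libraries lay below the MI_soft libraries for 3 members, Nupr1, Atf4 and Ddit3, against 6.87% of all tested genes. On the TPM scale the separation of Nupr1 remained, at 32.6 to 142 TPM in MI_stiff against 159.9 to 302 TPM in MI_soft, whereas Atf4 (72.3 to 119 against 119 to 175) and Ddit3 (23.4 to 71.8 against 60.1 to 70.0) overlapped. Atf4 had a log2 difference of -0.80 ± 0.22 with an unadjusted p of 0.00198 (edgeR adjusted p = 0.132), and DESeq2 called it with a difference of -0.76 (DESeq2 adjusted p = 0.0361). The Nupr1 call held in 6 of the 16 fits that each left out 1 library and was lost without MI 4, Sham 3, Sham 4, any 1 of the 4 MI_stiff libraries, MI_soft 2, MI_soft 3 or MI_soft 4, with differences from -2.02 to -1.55 and adjusted p from 0.0197 to 0.0972. It was also lost in a fit of MI_stiff and MI_soft alone (edgeR adjusted p = 0.109) and with limma on log2(TPM + 1) (limma adjusted p = 0.091). Atf4 was called in 0 of the 16 fits that each left out 1 library, with edgeR adjusted p from 0.0881 to 0.407. With the 4 libraries of fewest detected genes left out, the differences were -1.63 for Nupr1 and -0.73 for Atf4. Of those libraries only MI_soft 4 belongs to this comparison, and the others alter it through the shared estimate of spread and the scaling.

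The lower Nupr1 of MI_stiff hearts was set beside Atf3, which ATF4 is known to activate and which codes for a stress-induced transcription factor. Atf3 was the one other gene of a list of ATF4 targets that passed in these comparisons, and it moved the opposite way. It had 84.4, 37.9, 69.0 and 85.2 CPM in MI_stiff libraries, 18.7, 19.4, 17.7 and 21.7 CPM in MI_soft libraries and 23.3, 22.2, 16.3 and 31.9 CPM in MI libraries, against 10.6, 5.87, 6.37 and 3.49 CPM in Sham libraries. All MI_stiff libraries were above all others. Atf3 rose in MI_stiff by 1.56 ± 0.31 (log2) relative to MI (edgeR adjusted p = 0.025) and by 1.83 ± 0.31 relative to MI_soft (edgeR adjusted p = 0.0275). Relative to Sham it rose by 1.83 ± 0.32 in MI (edgeR adjusted p = 0.000313), as Nupr1 did. The call of Atf3 against MI was lost without MI 2, MI 4, MI_stiff 1, MI_stiff 3 or MI_stiff 4, with adjusted p up to 0.0742. That against MI_soft was lost without any 1 of the MI_soft libraries and without MI_stiff 1, MI_stiff 3 or MI_stiff 4, with adjusted p up to 0.106.

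Nupr1 was also set against the markers of other cell types, on the TPM scale, for each marker list of at least 2 genes that were above 0 in every library. These were the lists of fibroblasts, macrophages and monocytes, cardiomyocytes, endothelial cells and smooth muscle cells. Relative to the smooth muscle markers Tagln and Cnn1, Nupr1 was 39.0% to 86.7% in MI_stiff libraries, 79.6% to 98.3% in MI_soft libraries and 34.4% to 173% in MI libraries, against 33.8% to 70.0% in Sham libraries. The MI_stiff libraries overlapped the MI, MI_soft and Sham libraries in this ratio, and its mean log2 value was lower by 0.18 in MI_stiff than in MI (exact two-sided permutation p = 0.857) and by 0.45 in MI_stiff than in MI_soft (exact two-sided permutation p = 0.0857). MI libraries overlapped Sham libraries as well, with a difference of 0.61 (exact two-sided permutation p = 0.314), whereas MI_soft libraries lay above Sham libraries by a mean of 0.88.

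The other ratios separated MI_stiff from the other infarcted groups. Nupr1 was 2.18%, 1.05%, 2.95% and 2.89% of the summed fibroblast markers in MI_stiff libraries and 4.83%, 7.05%, 8.41% and 11.4% in MI_soft libraries. It was 5.07%, 5.91%, 5.48% and 4.90% in MI libraries, against 2.45%, 0.900%, 1.98% and 1.48% in Sham libraries. MI_stiff libraries did not overlap MI or MI_soft libraries but did overlap Sham libraries, with a mean log2 difference of 0.39 in MI_stiff against Sham (exact two-sided permutation p = 0.4). Relative to the macrophage and monocyte markers, Nupr1 was 3.51% to 7.84% in MI_stiff, 10.7% to 23.3% in MI_soft and 31.7% to 79.2% in MI libraries, against 10.4% to 27.2% in Sham libraries. In that ratio MI_stiff lay below Sham, MI_soft overlapped Sham and MI lay above Sham. Relative to the cardiomyocyte markers Nupr1 was 0.258% to 0.561% in MI_stiff, 0.639% to 1.62% in MI_soft and 0.888% to 1.56% in MI libraries, against 0.0222% to 0.0529% in Sham libraries. Relative to the endothelial markers it was 26.9% to 104% in MI_stiff, 199% to 412% in MI_soft and 174% to 244% in MI libraries, against 7.15% to 17.3% in Sham libraries. In those last 2 ratios every infarcted group lay above Sham. The endothelial list held 3 measured markers, as Pecam1 and Kdr had no row. They summed to 77.2 to 168 TPM in MI_stiff, 69.4 to 83.4 TPM in MI_soft and 86.0 to 137 TPM in MI libraries. In Sham libraries the sum was 79.7 to 124 TPM. In MI against Sham, 33.3% of that list was called higher and 33.3% lower, beside 20.2% and 16.4% of all tested genes. Over the 5 lists, Nupr1 was lower without overlap for 4 in MI_stiff against MI and for 4 in MI_stiff against MI_soft. It was higher without overlap for 4 in MI against Sham, for 4 in MI_soft against Sham and for 2 in MI_stiff against Sham, where 1 was lower. Each separated comparison had an exact two-sided permutation p of 0.0286, the smallest that 4 against 4 libraries can give. After Benjamini-Hochberg adjustment over the 25 comparisons of 5 lists it was 0.0376. The 25 comparisons share one set of Nupr1 values, whose TPM already separated these groups before division. The lists are therefore not independent of each other, and their number does not add support to the separation of Nupr1 itself.

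**Figure D3:**
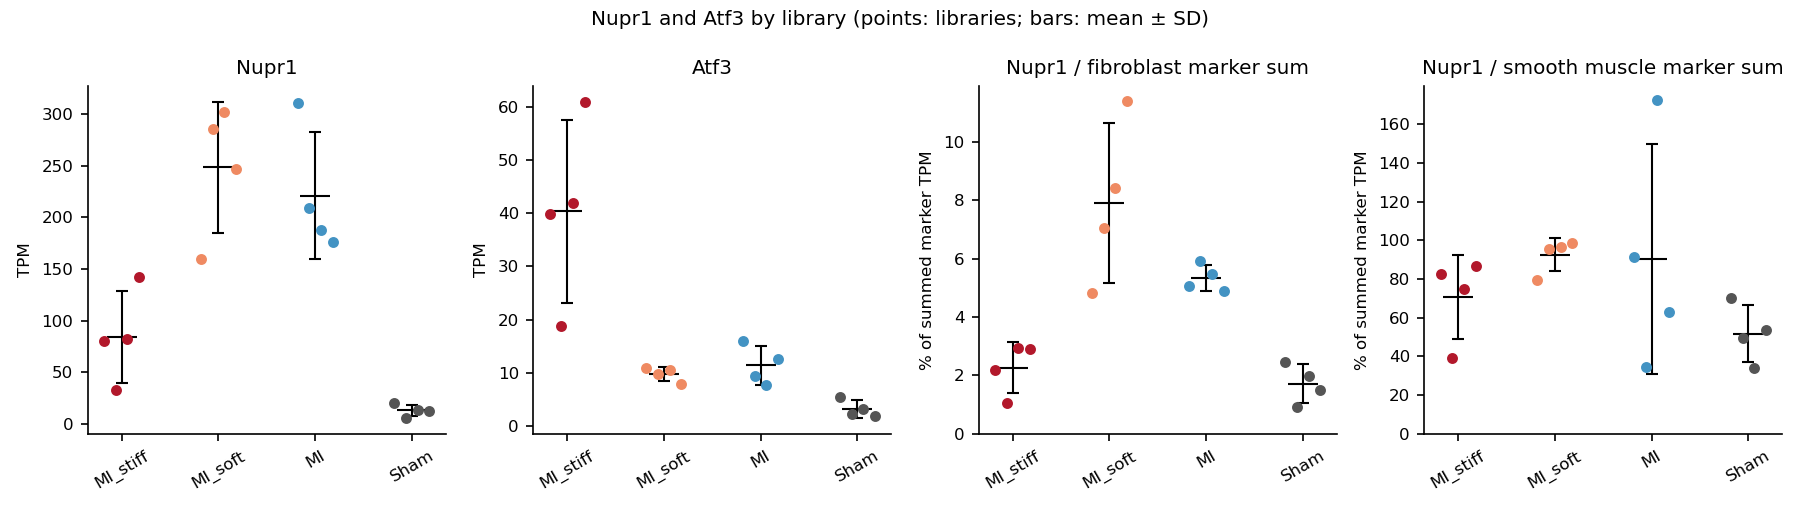
Nupr1 and Atf3 in TPM, and Nupr1 as a percentage of the summed TPM of 6 fibroblast markers and of 2 smooth muscle markers (vertical axes), in the 16 libraries by group, with points for libraries and bars for mean ± SD over 4 libraries. Nupr1 is lower and Atf3 higher in MI_stiff than in MI and MI_soft libraries. The ratio to fibroblast markers is at most 2.95% in MI_stiff libraries and at least 4.83% in MI_soft and MI libraries, while the ratio to smooth muscle markers overlaps between MI_stiff and the other infarcted groups.

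Scaled for gene length, the members differed in abundance by orders of magnitude. In Sham hearts, mean TPM was 188 ± 19.0 for Hspa5, 79.2 ± 12.1 for Atf4, 44.0 ± 4.49 for Xbp1, 27.8 ± 5.14 for Ddit3 and 12.7 ± 5.68 for Nupr1 (SD, n = 4 each). Gdf15, Asns, Trib3 and Chac1 were at 1.45 ± 0.596 TPM or below. In MI hearts Nupr1 had the highest mean of the 9, at 221 ± 61.5 TPM, where Hspa5 had 149 ± 8.77 TPM. In MI_soft hearts Nupr1 had 249 ± 63.4 TPM and Hspa5 190.2 ± 99.1 TPM. In MI_stiff hearts Nupr1, at 84.2 ± 44.9 TPM, was below both Hspa5 at 177 ± 55.9 TPM and Atf4 at 96.8 ± 19.2 TPM, though the Nupr1 and Atf4 ranges overlapped.

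The members were then placed among the other genes of their pathways, listed by function from general knowledge. Of 37 tested ATF4 target genes that are not members, 13 rose and 5 fell in MI, 13 rose and 3 fell in MI_soft and 10 rose and 3 fell in MI_stiff, each relative to Sham by edgeR's test. As shares these are 35.1% and 13.5% in MI, 35.1% and 8.11% in MI_soft and 27.0% and 8.11% in MI_stiff, beside 20.2% and 16.4%, 16.4% and 9.71%, and 12.7% and 8.44% of all tested genes. Their median log2 differences were 0.46 in MI, 0.49 in MI_soft and 0.46 in MI_stiff. Beside Atf3, Aldh18a1, an enzyme of proline synthesis, rose in MI by 1.24 ± 0.22 (edgeR adjusted p = 0.000348) and Iars1, the isoleucine tRNA ligase, fell by 1.20 ± 0.21 (edgeR adjusted p = 0.000351). The core of the integrated stress response, its kinases, eIF2 subunits and phosphatase regulators, was counted next: of 15 genes other than Atf4, 1 rose and 2 fell in MI, 1 rose and 1 fell in MI_soft, and none rose and 1 fell in MI_stiff. Those called were 20.0% of the list in MI, 13.3% in MI_soft and 6.67% in MI_stiff, where 36.6%, 26.1% and 21.2% of all tested genes were called. The 3 calls in MI were Dele1, which relays mitochondrial stress to the response and fell by 1.42 ± 0.20 (edgeR adjusted p = 6.00e-05), Gcn1, which helps to activate the amino acid sensing kinase and fell by 0.55 ± 0.21 (edgeR adjusted p = 0.0451), and Ppp1r15b, which directs dephosphorylation of eIF2 and rose by 0.92 ± 0.31 (edgeR adjusted p = 0.0264). The call of Gcn1 held in 6 of the 16 fits that each left out 1 library, with adjusted p up to 0.119, and that of Ppp1r15b was lost without MI 3, MI 4, Sham 2, Sham 3 or Sham 4, with adjusted p up to 0.0937.

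The ER genes were divided in a like manner. Of 21 ER chaperones and folding enzymes other than Hspa5, 8 rose and 2 fell in MI, 11 rose and none fell in MI_soft, and 6 rose and 1 fell in MI_stiff, relative to Sham. The higher were 38.1% of the list in MI, 52.4% in MI_soft and 28.6% in MI_stiff, beside 20.2%, 16.4% and 12.7% of all tested genes. In MI, Ppib, a proline isomerase that acts on collagen, rose by 1.77 ± 0.26 (edgeR adjusted p = 6.04e-05), and the disulfide isomerase Pdia3 rose by 1.07 ± 0.22 (edgeR adjusted p = 0.00109). Cnpy2 rose by 1.02 ± 0.19 (edgeR adjusted p = 0.000571). Hyou1, a large chaperone that works with BiP, fell by 0.95 ± 0.20 (edgeR adjusted p = 0.0013). Of 9 ER stress sensors and transcription factors that are not members, 1 rose and 2 fell in MI, and the falls were Ern1, the gene of IRE1, at -2.89 ± 1.07 (edgeR adjusted p = 0.042), and Creb3l2 at -1.49 ± 0.50 (edgeR adjusted p = 0.0262). In MI_soft 2 of the 9 rose and 1 fell, and in MI_stiff 1 rose and none fell. Those called were 33.3% of the list in MI, 33.3% in MI_soft and 11.1% in MI_stiff, beside 36.6%, 26.1% and 21.2% of all tested genes. The call of Ern1 held in 6 of the 16 fits that each left out 1 library, with adjusted p up to 0.0842, and that of Creb3l2 was lost without MI 2 (0.0717), Sham 1 (0.0554) or Sham 4 (0.0504). Of 16 genes of ER-associated degradation, which removes misfolded proteins, 4 rose and 4 fell in MI, which is 25.0% in each direction beside 20.2% and 16.4% of all tested genes. Among them Edem2 rose by 1.66 ± 0.29 (edgeR adjusted p = 0.0003) and Selenos by 0.96 ± 0.22 (edgeR adjusted p = 0.00293), whereas Ube2g2 fell by 1.46 ± 0.30 (edgeR adjusted p = 0.00114) and Sel1l by 1.09 ± 0.31 (edgeR adjusted p = 0.0124). In MI_soft 6 of the 16 rose and 2 fell, which is 37.5% and 12.5% beside 16.4% and 9.71% of all tested genes. In MI_stiff 3 rose and 1 fell, which is 18.8% and 6.25% beside 12.7% and 8.44%.

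Mitochondrial and cytosolic stress genes were listed apart. Of 9 mitochondrial chaperones and proteases, 7 fell in MI, 5 in MI_soft and 7 in MI_stiff relative to Sham, and none rose in any of them. The lower were 77.8%, 55.6% and 77.8% of the list, beside 16.4%, 9.71% and 8.44% of all tested genes. The median log2 difference was -1.11 in MI, -0.86 in MI_soft and -0.93 in MI_stiff. In MI, Hspa9, the mitochondrial HSP70, fell by 2.14 ± 0.40 (edgeR adjusted p = 0.000567) and Dnaja3, its co-chaperone, by 1.76 ± 0.19 (edgeR adjusted p = 3.57e-06). The proteases Clpx and Afg3l2 fell by 1.38 ± 0.26 (edgeR adjusted p = 0.000581) and 1.23 ± 0.19 (edgeR adjusted p = 0.000112). Of the 7 cardiomyocyte markers, 5 fell in MI, 5 in MI_soft and 6 in MI_stiff relative to Sham, and their part in the mitochondrial list was not tested. Of 12 cytosolic heat shock genes, 3 rose and 2 fell in MI, which is 25.0% and 16.7% beside 20.2% and 16.4% of all tested genes. Dnajb1 rose by 0.89 ± 0.22 (edgeR adjusted p = 0.00401), Dnaja1 by 1.06 ± 0.29 (edgeR adjusted p = 0.00793) and Hspb1 by 0.84 ± 0.23 (edgeR adjusted p = 0.0088), and the co-chaperone Bag3 fell by 0.68 ± 0.18 (edgeR adjusted p = 0.00695). In MI_soft 2 of the 12 rose and none fell, where 16.7% higher stood beside 16.4% of all tested genes. In MI_stiff 1 rose and 2 fell, which is 8.33% and 16.7% beside 12.7% and 8.44% of all tested genes. The inducible HSP70 genes Hspa1a and Hspa1b, and Hsp90aa1, had no row and are not among the 12. Lonp1, Clpp and Hspe1 also had no row and are not among the mitochondrial genes counted. With the 4 libraries of fewest detected genes left out, the mitochondrial chaperones and proteases gave 8 lower in MI_soft and 7 in MI_stiff, and the ATF4 target genes, members included, gave 22 higher and 4 lower in MI_soft and 23 and 5 in MI_stiff. Calls over all tested genes rose as well in that alternative, as given below, so its counts cannot be set beside the shares above. In MI_soft against MI, no gene of these 7 lists passed edgeR's test in the fit of all 16 libraries.

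**Figure D4:**
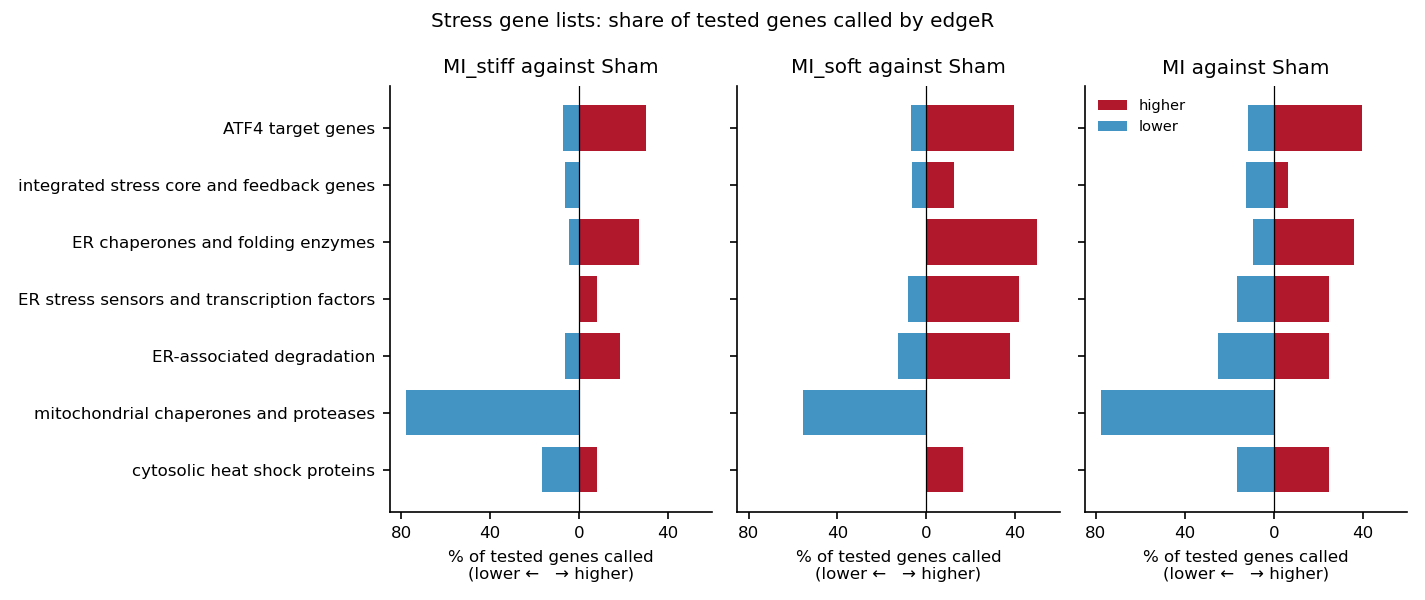
Percentage of the tested genes of each stress list (members included) that were higher (to the right of 0) or lower (to the left) than in Sham at an edgeR adjusted p under 0.05, in MI_stiff, MI_soft and MI. Of the 43 ATF4 target genes, 17 were higher and 5 lower in MI, and of the 9 mitochondrial chaperones and proteases none was higher in any of these comparisons.

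For each member, the 3 tested genes with the most similar profile over the 16 libraries were found by the root mean square (RMS) difference of log2 CPM after centering each gene on its mean. Closest to Nupr1 were S100a4, which codes for a calcium-binding protein of fibroblasts and immune cells, at an RMS difference of 0.46 (log2), Ngef at 0.52 and Mgp, which codes for matrix Gla protein, at 0.55. The closest profile to Atf4 was Myl12b at 0.21, followed by Sap30bp and Psmd8 at 0.22 each. Ddit3 was closest to Zfp653 at 0.20, Macroh2a1 at 0.23 and Tnip2 at 0.23. Hspa5 was closest to Timm29 at 0.19, to the heat shock gene Hsph1 at 0.20 and to Necap1 at 0.21. Xbp1 lay 0.15 from Rpl23a and from RGD1565170, which hold identical counts and so cannot be told apart, and 0.16 from Ilk. The genes nearest to Trib3 (B3galt4 at 0.50), Asns (Cybrd1 at 0.45), Chac1 (Cdca8 at 0.52) and Gdf15 (Kcnj9 at 0.46, then Slc1a5 at 0.57) were farther away. No member was among the 3 nearest genes of another. S100a4 averaged 28.7 CPM in MI_stiff, 64.1 CPM in MI_soft and 78.5 CPM in MI, against 4.13 CPM in Sham libraries, the same order as Nupr1 except that its MI mean was above its MI_soft mean.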

How the data were processed

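Total RNA of the infarct zone was measured in 16 libraries. Per the labels' protocols, mRNA was purified from it, libraries were made with a NEBNext kit and sequenced on an Illumina HiSeq instrument. The authors deposited expected counts per gene, which are estimates that need not be whole, and TPM, each for 17085 genes in all 16 libraries. The submitters' processing notes name STAR 2.7.3a, RSEM 1.3.1 and build rn7. Neither an annotation nor a strand setting is stated there or in the labels. Reads of near-identical gene copies, overlapping genes and antisense genes may have been shared out by the estimate. Rounding to whole numbers, which the tests need, altered 0.785% of the expected counts that the authors deposited. All 144 values of the 9 genes were whole.

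Counts were tested with edgeR 4.0.16 in R 4.3.3 (TMM factors, default expression filter with a minimum count of 10 and a minimum total of 15, robust quasi-likelihood fit of all 16 libraries with 1 coefficient per group, Benjamini-Hochberg adjustment over 11376 genes). The SE is the absolute log2 difference divided by the square root of F. The 95% intervals use the t distribution with the total degrees of freedom of the fit, 17.7 for the members. That total adds prior degrees of freedom, estimated over all genes, to the residual ones. Alternatives were DESeq2 1.42.0, DESeq2 size factors in edgeR, TMM without mitochondrially encoded genes, no expression filter, fits of 2 groups, limma 3.58.1 on log2(TPM + 1) and log2(TPM + 0.1) from the deposited TPM, the replicate number as a block, and leaving out each library. One more, without MI 2, MI 3, MI 4 and MI_soft 4, was chosen after seeing the data. It leaves MI 1 as the only MI library, which is then assumed to vary like the libraries of the other groups. Total counts of 10940685 to 14456188 per library limit the precision of genes with few counts, and limits of detection cover counting error only, whereas the 95% intervals of the fit include the spread between libraries.

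All 9 members were named in every comparison. Of each pathway list, up to 4 genes with the smallest adjusted p in MI against Sham were named, as was every list gene called between infarcted groups. The members and lists were chosen with earlier results of these data known. Promoter sequences matched by gene symbol for 9 of 9 members.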

Additional observations from a re-analysis of the deposited data

Results flagged for a closer look

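In 3 of 36 sets of 4 libraries (9 genes in 4 groups), 1 library lay far from the other 3, its gap to the nearest, divided by the whole range, exceeding Dixon's 95% critical value for 4 values. Chance gives this in about 1 in 20 sets. Asns had 1.59 CPM in MI 2, where the other MI libraries had 5.38 to 5.53 CPM. Hspa5 had 296 CPM in MI 1, where the other MI libraries had 440.1 to 466 CPM. Xbp1 had 204 CPM in MI_soft 4, where the other MI_soft libraries had 136 to 146 CPM. MI 2 and MI_soft 4 are among the libraries with the fewest detected genes, and MI 1 has the most. The part of detection in these values was not tested.

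The difference of Nupr1 between the gels was itself past the test's threshold, at a log2 difference of -1.81 in MI_stiff against MI_soft (edgeR adjusted p = 0.0354), with all 4 MI_stiff libraries below all 4 MI_soft libraries.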

How the results depend on the processing

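The 54 log2 differences of the members (9 genes in 6 comparisons) were recomputed under 25 alternatives. Of the 1350 values, 1221 kept direction and call, 53 lost a call, 24 gained one and 52 changed sign, and no difference that changed sign was called before or after. Except where stated, the cause of a change was not tested. The rise of Nupr1 in MI, MI_soft and MI_stiff relative to Sham kept its direction and call in every alternative run. Low counts limit Trib3 and Chac1, and the libraries with few detected genes limit each MI value.

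Counts of members called were as follows, where the main analysis gave 5 in MI against Sham, 1 in MI_stiff against MI, 1 in MI_stiff against MI_soft and 3 in MI_stiff against Sham. Fits of the 2 groups alone gave 3, 0, 0 and 5, and limma on log2(TPM + 1) and on log2(TPM + 0.1) gave 3 in MI against Sham, 0 in MI_stiff against MI and 0 in MI_stiff against MI_soft. DESeq2 called 2 in MI_stiff against MI, where Ddit3 was added, and 2 in MI_stiff against MI_soft, where Atf4 was added. Without the 4 libraries of fewest detected genes, which leaves 1 MI library assumed to vary like the other groups, 0 were called in MI_stiff against MI, 2 in MI_stiff against MI_soft and 6 in MI_stiff against Sham. Leaving out 1 library at a time gave 3 to 6 members in MI against Sham, 0 to 2 in MI_stiff against MI, 0 to 1 in MI_stiff against MI_soft, 5 to 7 in MI_soft against Sham and 2 to 4 in MI_stiff against Sham.

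Counts over all genes moved more. DESeq2 called 293 in MI_soft against MI (edgeR 3), 583 in MI_stiff against MI (edgeR 135) and 278 in MI_stiff against MI_soft (edgeR 11). Fits of the 2 groups alone called 0 in MI_soft against MI, 17 in MI_stiff against MI and 4618 in MI_stiff against Sham (2410 with all groups). The fit with no filter on low counts called 82 in MI_stiff against MI. Limma called 5 in MI_soft against MI with a pseudocount of 1, and with 0.1 called 0 there and 64 in MI_stiff against MI. Without the 4 libraries of fewest detected genes, 11 genes were called in MI_soft against MI, 240 in MI_stiff against MI_soft, 4461 in MI_soft against Sham (2965 with them) and 4951 in MI_stiff against Sham. Leaving out 1 library at a time gave 0 to 1505 genes in MI_soft against MI, 11 to 1216 in MI_stiff against MI and 4 to 57 in MI_stiff against MI_soft, and the highest value came without MI 1 in the first 2 and without MI 1 or MI 3 in the last. The share of higher among all genes called in MI against Sham was 2296 of 4165, and without MI 1 it was 2405 of 4749.

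The labels do not say whether the replicate numbers pair libraries. Of 24 pairs with one number, 5 had deviations from their group means that correlated above 0.1 (range -0.28 to 0.18). Of the 16 libraries, 2 correlated best with their own number. These correlations cannot show whether libraries of one number were handled together. With the replicate number as a block, 0 members were called in MI_stiff against MI_soft, where Nupr1 had a log2 difference of -1.87 (edgeR adjusted p = 0.0755), and over all genes 0 were called in MI_soft against MI, 34 in MI_stiff against MI and 3 in MI_stiff against MI_soft. The block gave log2 differences of 0.0034 for Trib3 in MI_soft against MI and -0.0010 for Atf4 in MI_stiff against Sham, each changed in sign.

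Other values that changed sign were uncalled. Limma on TPM moved the median of all tested genes upward, by 0.17 to 0.27 in the comparisons of MI_stiff, and gave, with pseudocounts of 1 and 0.1, 0.20 and 0.20 for Hspa5, 0.0020 and 0.089 for Trib3 and 0.021 and 0.40 for Chac1 in MI_stiff against MI. It gave 0.076 and 0.078 for Hspa5 and 0.055 and 0.063 for Trib3 in MI_stiff against MI_soft, 0.011 and 0.011 for Xbp1 in MI_soft against MI, and 0.026 for Trib3 there with 0.1. Without the 4 libraries of fewest detected genes, the differences in MI_soft against MI were -0.016 for Nupr1, 0.17 for Ddit3, 0.21 for Trib3 and 0.27 for Xbp1. In that alternative they were 0.32 for Trib3 and 0.42 for Hspa5 in MI_stiff against MI, 0.11 for Trib3 in MI_stiff against MI_soft and 0.060 for Hspa5 in MI_soft against Sham. Atf4 in MI_stiff against Sham was -0.024 with DESeq2, -0.024 with DESeq2 size factors and -0.022 with TMM without mitochondrially encoded genes. Leaving out 1 library at a time, the signs that changed belonged to Asns (-0.030 to 0.56) and Hspa5 (-0.19 to 0.017), Trib3 (-0.46 to 0.22) and Chac1 (-0.70 to 0.39) in MI_stiff against MI, to Asns (-0.53 to 0.052), Gdf15 (-0.32 to 0.0090) and Trib3 (-0.36 to 0.16) in MI_stiff against MI_soft, and to Atf4 in MI_stiff against Sham (-0.11 to 0.090). The others were Chac1 (-0.10 to 0.98), Hspa5 (-0.0065 to 0.39), Nupr1 (-0.026 to 0.37), Trib3 (-0.41 to 0.27) and Xbp1 (-0.24 to 0.086) in MI_soft against MI and Hspa5 in MI_soft against Sham (-0.37 to 0.034).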
